A study of Mus musculus with 9 samples.

Results

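A set of 10 genes of the p53 pathway were followed at the level of mRNA, namely Trp53 itself and the p53 targets Cdkn1a, Mdm2, Ccng1, Phlda3, Trp53inp1, Sesn1, Eda2r, Zmat3 and Aen. They were chosen by name from the pathway and matched by symbol, and all 10 were among the 54838 mouse genes of the deposited tables and among the 12702 that reached 1 FPKM in 2 or more of the 7 libraries. The RNA-seq libraries came from small intestinal organoids of Vil-CreERT2;Mettl3 fl/fl mice (C57BL/6, male, 2 to 4 months old). Mettl3 encodes the catalytic subunit of the m6A RNA methyltransferase. In every group the cells carried the floxed Mettl3 alleles and a tamoxifen-inducible Cre under the villin promoter, which is active in intestinal epithelium. The 4 groups were defined by vehicle (EtOH) or 4-hydroxytamoxifen (4-OHT, 500 nM, 2 days), which activates the Cre and so deletes Mettl3, combined with DMSO or necrostatin-1 (Nec-1, 5 days), an inhibitor of the kinase RIPK1. The 4-OHT Nec-1 group had 1 library and each of the other groups, EtOH DMSO, 4-OHT DMSO and EtOH Nec-1, had 2. The Nec-1 concentration is stated as 5 µM in a figure legend and as 10 µM in the methods. No group received 4-OHT without the floxed alleles, so 4-OHT itself and the deletion of Mettl3 cannot be told apart. The labels do not say whether replicates came from separate mice or cultures, and p-values then measure only the spread between these libraries.

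The libraries were similar in FPKM sum (450207 to 498712) and in the number of genes at 1 FPKM or more (11559 to 12038). Their depths, as read from the spacing of low values, were roughly 0.85 to 1.04 relative to EtOH DMSO replicate 1. These depths are uncertain, because the most frequent ratio held only 39 to 94 of the 645 to 1092 genes used per compared library. FPKM is scaled by transcript length and by the number of mapped fragments, so it can be compared between genes. Mettl3 had no lower level where the label was 4-OHT. It stood at 2.70 and 2.71 FPKM in EtOH DMSO and 3.72 and 4.14 in 4-OHT DMSO, while the Nec-1 libraries gave 2.41 and 2.47 (EtOH) and 3.36 (4-OHT). The difference between 4-OHT DMSO and EtOH DMSO was 0.41 on the log2(FPKM + 1) scale (SE 0.098, adjusted p = 0.0231, limma with Benjamini-Hochberg adjustment). An FPKM value for the whole gene cannot show an excised exon, so the labels were not checked by it, and each 4-OHT group below is the group so labelled. For the labelled cell type, all 8 epithelial markers passed the filter and Krt8 reached 1152 to 1771 FPKM. The summed level of 6 immune markers was 1.03 to 4.39 FPKM and that of 7 fibroblast and endothelial markers 0.569 to 1.24 FPKM. The immune marker Ptprc and the fibroblast marker Col1a1 were below 0.1 FPKM in each library. Other members of these lists were higher and passed the filter. The immune markers Itgam and Lyz2 stood at 0.315 to 2.45 and 0.237 to 2.63 FPKM, and the fibroblast marker Vim at 0.501 to 1.08 FPKM.

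p53, encoded by Trp53, is a transcription factor that is held low by the ubiquitin ligase MDM2 and accumulates after DNA damage, ribosomal stress and other insults, mainly through protein stability rather than through its mRNA. It binds pairs of a 10-base consensus and raises genes for cell cycle arrest, cell death, DNA repair and metabolism, as well as Mdm2, which closes a negative feedback loop. In the intestinal crypt it is best known for the response to irradiation, in which Cdkn1a arrests cells and Bbc3 drives their apoptosis.

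Promoter windows from RefSeq (GRCm38.p6, 250 bases before to 50 bases after each annotated start) were given for 8 of the 10 genes, with 11 windows in all, and were searched for the p53 consensus decamer, which reads the same on both strands. At least 1 decamer was present in 7 of the 11 windows (63.6%), against 8.36% of 32851 promoter windows of the same length. The 2 windows of Aen overlap and share 1 decamer, so counted by gene it was 6 of 8, against 9.55% of 27025 genes. A pair of decamers with at most 13 bases between them was present only at Cdkn1a among these windows, and in 24 of all promoter windows (0.0731%). The shorter letters CATG, the motif planned at first, were less frequent in the windows of these genes (27.3%) than in all (61.1%). The median GC content was 63.3% against 52.7%. The decamer was added later, and the genes were chosen as known p53 targets, so these shares are a description and not a test. The 250 bases before the start are shown for Cdkn1a, which holds the pair, for Mdm2, Aen and Phlda3, whose mRNA rose in 4-OHT DMSO, and for Trp53, whose mRNA fell, with each decamer in capitals.
Cdkn1a: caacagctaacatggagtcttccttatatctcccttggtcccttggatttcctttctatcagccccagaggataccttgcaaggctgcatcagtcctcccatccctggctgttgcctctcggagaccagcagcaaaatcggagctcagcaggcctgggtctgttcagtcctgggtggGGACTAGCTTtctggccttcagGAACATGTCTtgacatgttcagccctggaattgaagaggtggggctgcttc
Mdm2: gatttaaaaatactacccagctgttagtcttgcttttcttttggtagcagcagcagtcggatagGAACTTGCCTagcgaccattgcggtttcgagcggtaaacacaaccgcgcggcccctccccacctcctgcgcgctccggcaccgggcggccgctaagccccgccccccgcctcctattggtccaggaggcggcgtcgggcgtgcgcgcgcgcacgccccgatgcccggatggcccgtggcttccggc
Aen: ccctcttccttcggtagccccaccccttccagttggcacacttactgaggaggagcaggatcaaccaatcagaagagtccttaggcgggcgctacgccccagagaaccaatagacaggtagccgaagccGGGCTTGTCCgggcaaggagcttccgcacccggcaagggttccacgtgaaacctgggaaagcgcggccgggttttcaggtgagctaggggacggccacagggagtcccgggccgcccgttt
Trp53: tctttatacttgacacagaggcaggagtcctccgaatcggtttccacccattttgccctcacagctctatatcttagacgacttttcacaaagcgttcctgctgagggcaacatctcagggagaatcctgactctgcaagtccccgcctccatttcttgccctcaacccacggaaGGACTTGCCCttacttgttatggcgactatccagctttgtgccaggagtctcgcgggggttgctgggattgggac
Phlda3: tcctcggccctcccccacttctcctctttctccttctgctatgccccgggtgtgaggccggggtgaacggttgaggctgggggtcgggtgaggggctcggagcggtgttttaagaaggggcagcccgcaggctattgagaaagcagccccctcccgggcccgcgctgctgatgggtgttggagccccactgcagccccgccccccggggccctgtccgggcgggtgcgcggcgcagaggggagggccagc
These sequences lie at chr17:29090729-29090978 (plus strand) for Cdkn1a, chr10:117710759-117711008 (minus strand) for Mdm2, chr7:78895808-78896057 (plus strand, the downstream of 2 annotated starts) for Aen, chr11:69580109-69580358 (plus strand) for Trp53 and chr1:135765835-135766084 (plus strand) for Phlda3. Cdkn1a is shown at the upstream of 2 annotated starts. There the decamers GGACTAGCTT and GAACATGTCT began 73 and 51 bases before the start, with 12 bases between them. The search took exact matches only. It left out tgacatgttc, which directly follows GAACATGTCT and misses the consensus only at its opening base. The pair in capitals is thus not the only possible pairing there. Mdm2 had GAACTTGCCT 186 bases, Aen had GGGCTTGTCC 121 bases and Trp53 had GGACTTGCCC 75 bases before the start. Of the genes not shown, Ccng1 had GGGCAAGCCT 185 bases and Sesn1 had AAGCTTGTTT 173 bases before a start. Phlda3 and Eda2r had none in these windows. The other windows of Cdkn1a (chr17:29093519-29093818) and Sesn1 (chr10:41810324-41810623) also had none. A match to these letters is a description of the sequence, since binding of p53 was not measured here.

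Cdkn1a (chr17:29090979-29100722), the inhibitor of cyclin-dependent kinases known as p21, was the most abundant of the 10 genes per transcript length. It stood at 92.9 and 97.7 FPKM in EtOH DMSO and 85.2 and 104 in 4-OHT DMSO, while the Nec-1 libraries gave 94.1 and 90.4 (EtOH) and 95.6 (4-OHT). The 4-OHT DMSO libraries spanned every other library, and no group stood apart. Ccng1 (chr11:40748552-40755309), which encodes cyclin G1, came next (gene positions are those of RefSeq on GRCm38.p6), at 52.4 and 48.9 FPKM in EtOH DMSO and 44.0 and 45.1 in 4-OHT DMSO, while the Nec-1 libraries gave 52.1 and 56.9 (EtOH) and 42.9 (4-OHT). All 3 libraries labelled 4-OHT lay below all 4 libraries labelled EtOH.

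Trp53 (chr11:69580348-69591873) was highest in EtOH DMSO. Its level was 18.0 and 17.8 FPKM there and 13.4 and 11.7 in 4-OHT DMSO, while the Nec-1 libraries gave 12.8 and 13 (EtOH) and 11.1 (4-OHT). The EtOH DMSO libraries lay above the other 5, whereas EtOH Nec-1 and 4-OHT DMSO overlapped. Mdm2 (chr10:117688875-117710758) was highest in 4-OHT DMSO, with 6.59 and 7.56 FPKM in EtOH DMSO and 12.2 and 11.2 in 4-OHT DMSO, while the Nec-1 libraries gave 6.09 and 5.91 (EtOH) and 9.18 (4-OHT). Its 4 groups did not overlap, and 4-OHT Nec-1 lay between EtOH DMSO and 4-OHT DMSO.

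Phlda3 (chr1:135766085-135769134), whose product competes with the kinase AKT for membrane lipids, stood at 10.9 and 10.8 FPKM in EtOH DMSO and 15.5 and 16.0 in 4-OHT DMSO, while the Nec-1 libraries gave 6.66 and 7.18 (EtOH) and 9.81 (4-OHT). Its 4 groups did not overlap either, and each Nec-1 group lay below the DMSO group given the same first treatment. Aen (chr7:78895927-78911209), an apoptosis-enhancing nuclease, stood at 6.70 and 6.74 FPKM in EtOH DMSO and 10.3 and 9.83 in 4-OHT DMSO, while the Nec-1 libraries gave 4.89 and 5.53 (EtOH) and 8.46 (4-OHT). The order of its groups was that of Mdm2, again without overlap. Sesn1 (chr10:41810574-41908436), a stress-induced inhibitor of mTORC1 signalling, had 10.9 and 9.96 FPKM in EtOH DMSO and 7.18 and 6.49 in 4-OHT DMSO, while the Nec-1 libraries gave 9.42 and 9.97 (EtOH) and 7.13 (4-OHT). The 3 libraries labelled 4-OHT were below the 4 labelled EtOH, and the Nec-1 libraries were not apart from the DMSO libraries given the same first treatment.

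The remaining 3 genes were low. Zmat3 (chr3:32334792-32365665), an RNA-binding zinc finger protein, had 3.16 and 4.52 FPKM in EtOH DMSO and 4.51 and 4.27 in 4-OHT DMSO, while the Nec-1 libraries gave 2.87 and 2.76 (EtOH) and 3.89 (4-OHT). Its EtOH DMSO libraries were far apart, and EtOH Nec-1 was lowest. Trp53inp1 (chr4:11156441-11174379), a nuclear protein that promotes p53-dependent death and autophagy, had 4.40 and 4.73 FPKM in EtOH DMSO and 5.02 and 4.63 in 4-OHT DMSO, while the Nec-1 libraries gave 5.32 and 4.90 (EtOH) and 4.24 (4-OHT), with overlap between neighbouring groups except for the lowest, 4-OHT Nec-1. Eda2r (chrX:97333837-97377234), a receptor of the TNF receptor family, had 1.10 and 1.55 FPKM in EtOH DMSO and 1.26 and 1.31 in 4-OHT DMSO, while the Nec-1 libraries gave 0.945 and 1.05 (EtOH) and 0.886 (4-OHT). At this level the pseudocount of 1 makes its log2 differences smaller than the ratio of its values. Zmat3 overlaps a long non-coding RNA and Eda2r a pseudogene in the RefSeq annotation, so reads could have been shared there.

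**Figure D1:**
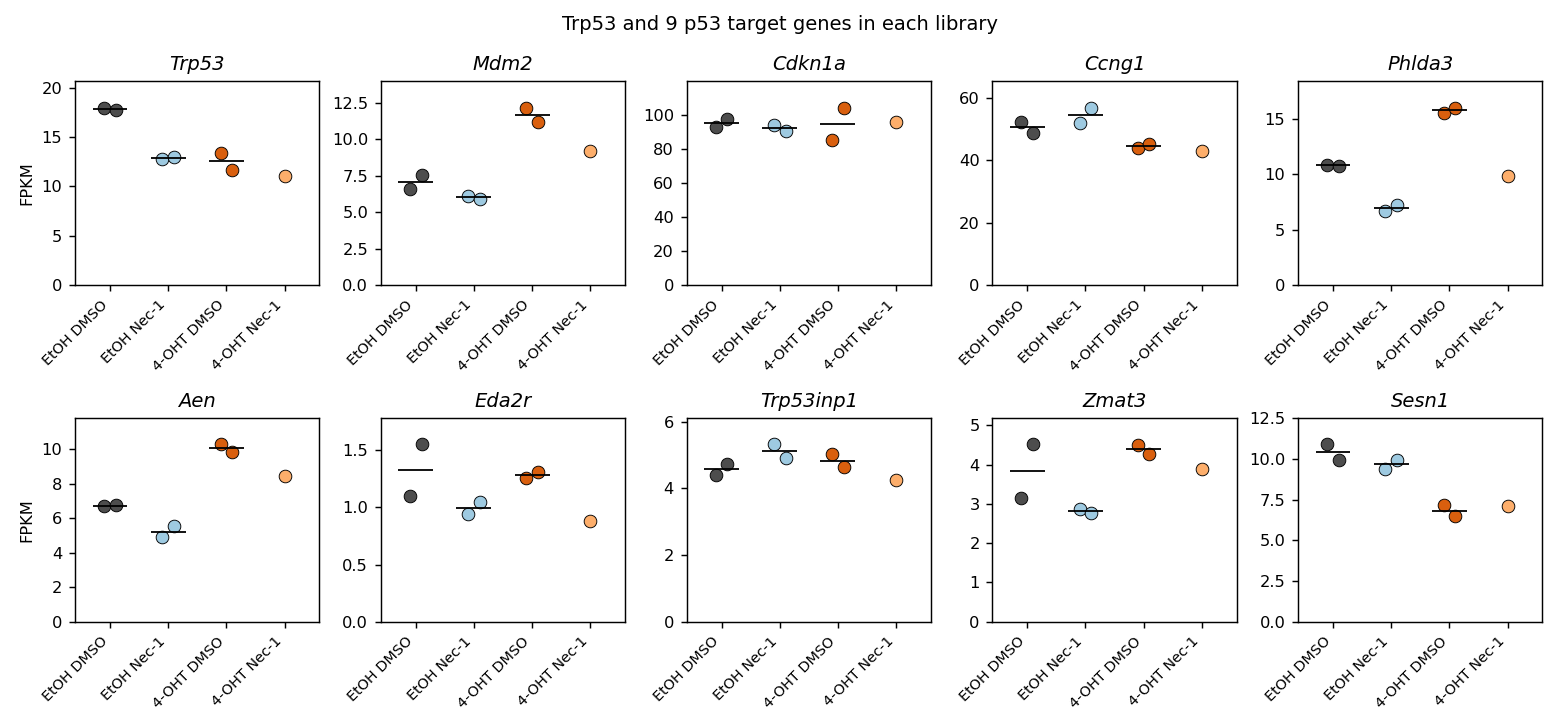
FPKM (linear axes from 0) of Trp53 and 9 p53 target genes, with 1 point per library and a line at the mean of groups with 2 libraries. Mdm2, Phlda3 and Aen were highest in 4-OHT DMSO, Trp53 was highest in EtOH DMSO, and Cdkn1a stood at 85.2 to 104 FPKM throughout.

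The comparison of 4-OHT DMSO with EtOH DMSO asked what changed in organoids after the treatment that deletes Mettl3. Of the 10 genes, Mdm2, Aen and Phlda3 rose, Sesn1 and Trp53 fell, and Cdkn1a, Ccng1, Trp53inp1, Eda2r and Zmat3 did not pass the test. Thus 3 of 10 rose where 24.5% of all 12702 genes tested rose, and 2 of 10 fell where 16.7% of all fell, or 5 of 10 against 41.2% in either direction. Because many genes changed in this comparison, these counts were close to the background. The median log2 fold change of the 10 genes was 0.025 and that of all genes 0.077.

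Mdm2 rose by 0.65 on the log2(FPKM + 1) scale (SE 0.101, adjusted p = 0.00592, limma), a mean FPKM 1.65 times that of EtOH DMSO. Aen rose by 0.52 (SE 0.0924, adjusted p = 0.00922, limma) and Phlda3 by 0.50 (SE 0.0815, adjusted p = 0.00674, limma), with mean FPKM of 1.49 and 1.46 times the control. Each of the 3 was higher in both 4-OHT DMSO libraries than in both EtOH DMSO libraries. Sesn1 fell by 0.55 on the log2 scale (SE 0.096, adjusted p = 0.00876, limma) to 0.655 times the mean FPKM of the control. Trp53, the gene of the factor itself, fell by 0.48 (SE 0.0934, adjusted p = 0.0119, limma) to 0.701 times. Without the first EtOH DMSO library the adjusted p of Trp53 was 0.0505 in limma, and over all alternatives it ranged from 0.00577 to 0.0505.

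Cdkn1a differed by -0.016 on the log2 scale, with a 95% confidence interval of -0.30 to 0.27 and an adjusted p of 0.923 in limma. The interval spans 0 widely, and the 4-OHT DMSO libraries lay on either side of the controls. Ccng1 was lower in both 4-OHT DMSO libraries, with a log2 difference of -0.18 and an adjusted p of 0.145 in limma. It passed when each library was centred on its median (log2 difference -0.34, adjusted p = 0.0361, limma) and with upper quartile scaling (-0.34, adjusted p = 0.0235, limma), with a range of 0.0235 to 0.355 over its alternatives. Zmat3 (0.17), Trp53inp1 (0.065) and Eda2r (-0.018) had overlapping libraries in the 2 groups. Counted by separation alone, 3 genes lay higher and 3 lower without overlap, where 40.7% and 30.8% of all genes did, and after median centring 3 lay higher and 6 lower, where 30.9% and 41.6% did. Median centring moved the median of all genes from 0.077 to -0.080 and the calls over all genes from 3117 higher and 2120 lower to 2213 higher and 3187 lower. After centring 3 of the 10 genes were called higher and 3 lower, the third being Ccng1, and Mdm2 (0.49), Aen (0.36) and Phlda3 (0.35) were again the 3 called higher.

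**Figure D2:**
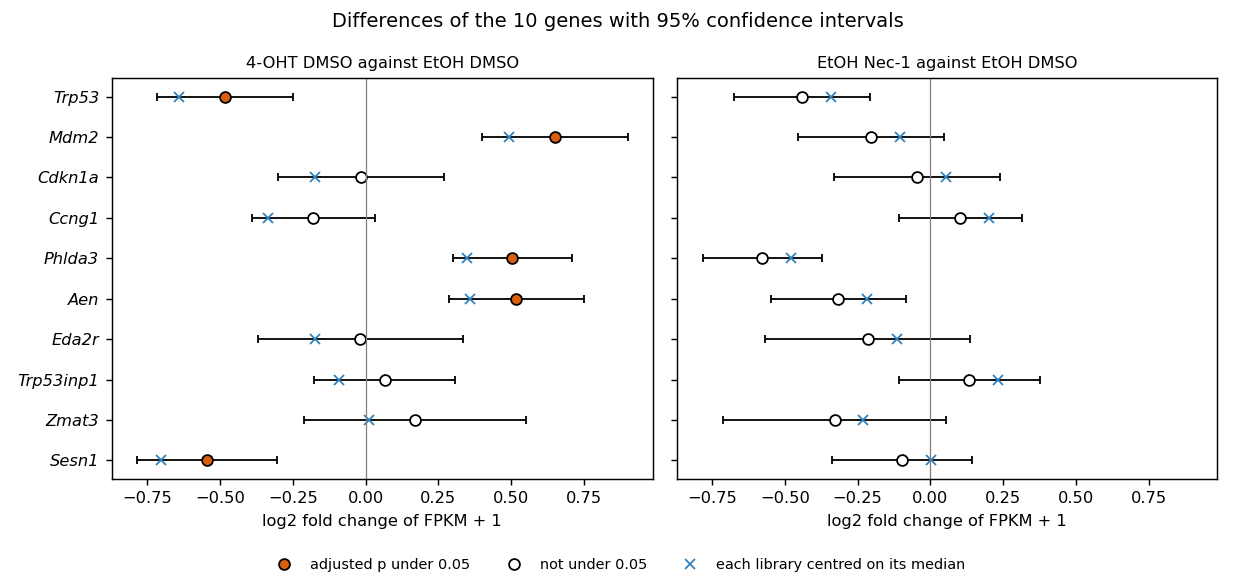
Log2 fold changes of FPKM + 1 with 95% confidence intervals from limma, for 4-OHT DMSO (left) and EtOH Nec-1 (right) against EtOH DMSO. Filled points had an adjusted p under 0.05 (Mdm2, Phlda3, Aen, Trp53 and Sesn1 on the left, none on the right), and crosses give the value after each library was centred on its median.

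The comparison of EtOH Nec-1 with EtOH DMSO asked what the RIPK1 inhibitor did in organoids without 4-OHT. None of the 10 genes passed limma, where 0.22% of all genes tested did (0.173% higher and 0.0472% lower), and limma without the mean-variance trend also called 0 of the 10. At an unadjusted p under 0.05 in limma there were 1689 of all genes (13.3%, with 10.4% lower and 2.92% higher) and 3 of the 10, all lower. These were Phlda3, with a log2 difference of -0.58 (SE 0.0815, adjusted p = 0.106, limma, 0.0840 to 0.617 over the alternatives), Trp53 with -0.44 (SE 0.0934, adjusted p = 0.201, limma, 0.117 to 0.75) and Aen with -0.32 (SE 0.0924, adjusted p = 0.298, limma, 0.268 to 0.856). Mean FPKM with Nec-1 was 0.640 times the control for Phlda3, 0.722 times for Trp53 and 0.775 times for Aen.

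By separation of the libraries, Trp53, Mdm2, Phlda3, Eda2r, Zmat3 and Aen lay lower in both EtOH Nec-1 libraries, 6 of 10 where 39.1% of all genes did, and Trp53inp1 lay higher, where 10.5% did. After median centring 5 of the 10 lay lower and 3 higher, where 21.7% and 22.4% of all genes did. The median difference of the 10 genes was -0.21 and that of all genes -0.094, or -0.11 and 0.0048 after centring. The comparison shares its control libraries with that of 4-OHT DMSO, so a high or low value in EtOH DMSO enters both. Cdkn1a (-0.046, 95% confidence interval -0.33 to 0.24) and Sesn1 (-0.096, -0.34 to 0.14) had overlapping libraries and turned sign with centring, and Ccng1 (0.10) also overlapped.

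The single 4-OHT Nec-1 library was set beside the 2 4-OHT DMSO libraries to ask what Nec-1 did in organoids given 4-OHT. It has no replicate check, and no test was made. Of the 10 genes, 8 lay below both DMSO libraries, where 49.3% of all genes did, and 0 lay above both, where 25.5% did. With median centring 4 lay below (31.8% of all genes), namely Mdm2, Phlda3, Eda2r and Aen, and 2 lay above (42.3%), namely Ccng1 and Sesn1. Phlda3 had the largest difference of the 10, -0.63 on the log2(FPKM + 1) scale or -0.52 after centring, and at 9.81 FPKM it also lay below the EtOH DMSO libraries. Mdm2 differed by -0.31 (-0.20 centred), Eda2r by -0.28 (-0.16), Aen by -0.22 (-0.11), Trp53 by -0.16, Trp53inp1 by -0.15, Zmat3 by -0.14 and Ccng1 by -0.055. Cdkn1a (0.022) and Sesn1 (0.056) lay between the DMSO libraries.

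Trp53, Mdm2, Phlda3, Eda2r, Zmat3 and Aen were lower with Nec-1 in every pairing of libraries, both in EtOH and in 4-OHT organoids, and these comparisons share no library. That is 6 of 10 genes, where 23.9% of all genes were so. With median centring it was 3 of 10, where 9.95% of all genes were. The mean FPKM of Phlda3 with Nec-1 was 0.640 times that with DMSO in EtOH organoids and 0.623 times in 4-OHT organoids.

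**Figure D3:**
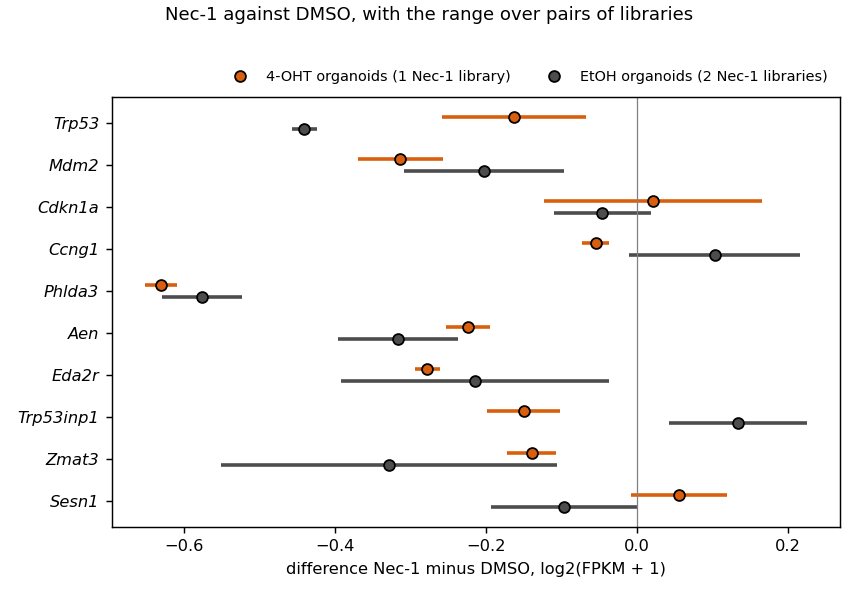
Difference of log2(FPKM + 1) between Nec-1 and DMSO in 4-OHT organoids (orange, 1 Nec-1 library) and EtOH organoids (grey, 2 Nec-1 libraries). Points are differences of group means and lines run from the smallest to the largest difference over pairs of libraries. Phlda3 was lowest in both, and Trp53inp1, Ccng1, Cdkn1a and Sesn1 lay on opposite sides of 0.

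Against the 2 EtOH Nec-1 libraries, which asks what 4-OHT did with RIPK1 inhibited, the 4-OHT Nec-1 library was above both for 5 genes (50.4% of all genes) and below both for the other 5 (38% of all genes). Above were Aen (0.61), Mdm2 (0.54), Phlda3 (0.45), Zmat3 (0.36) and Cdkn1a (0.052), the last of which turned to -0.090 with median centring, which left 4 above (39% of all genes) and 6 below (49.4%). Below were Sesn1 (-0.39), Ccng1 (-0.34), Trp53inp1 (-0.22), Trp53 (-0.20) and Eda2r (-0.082). The differences of Mdm2, Aen and Phlda3 with Nec-1 present (0.54, 0.61 and 0.45) stood beside 0.65, 0.52 and 0.50 without it, and that of Sesn1 (-0.39) beside -0.55. Whether these pairs of differences differ was not tested, with 1 library in a group.

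The pathway beyond these genes was described with 79 further genes in 5 lists of p53 regulators and of p53 targets by role, of which 65 passed the filter. In 4-OHT DMSO against EtOH DMSO 18 of the 65 rose, 14 fell and 33 did not pass, where 24.5% of all genes tested rose and 16.7% fell, which is near these counts, with a median log2 fold change of 0.11 beside 0.077 for all genes. With median centring 15 rose and 20 fell, where 17.4% and 25.1% of all genes did. The number that fell was 8 to 14 when single libraries were left out, with 8 without the second EtOH DMSO library and 9 without either EtOH Nec-1 library or the second 4-OHT DMSO library. By role, to be read against the same 24.5% and 16.7%, 5 of 9 cell cycle arrest targets rose and 2 fell (median 0.50), 3 of 14 cell death targets rose and 1 fell (median 0.27), and 9 of 19 metabolism and stress targets rose and 4 fell (median 0.34). Of 6 DNA repair targets 0 rose and 2 fell (median -0.17), and of 17 regulators 1 rose and 5 fell (median -0.19). With median centring the rises and falls were 4 and 3 for arrest, 2 and 1 for cell death and 9 and 7 for metabolism and stress targets. They were 0 and 3 for DNA repair targets and 0 and 6 for regulators, to be read against the centred 17.4% and 25.1%.

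The arrest targets that rose most were Plk2, a polo-like kinase, from 2.00 and 2.22 FPKM in EtOH DMSO to 9.82 and 8.53 in 4-OHT DMSO (log2 fold change 1.71, SE 0.113, adjusted p = 0.000591, limma), and Sfn, which encodes 14-3-3 sigma, from 76.2 and 77.9 to 177 and 213 FPKM (1.32, SE 0.107, adjusted p = 0.000959, limma). Gadd45a, a growth arrest gene induced by DNA damage, fell from 21.1 and 20.7 to 10.1 and 14.8 FPKM (-0.73, SE 0.175, adjusted p = 0.0233, limma). Its adjusted p was 0.0986 without the first and 0.0878 without the second EtOH DMSO library, with a range of 0.00348 to 0.0986 over the alternatives. Thus arrest targets moved in both directions while Cdkn1a, of the same role, overlapped between the groups.

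Of the metabolism and stress targets, Ptp4a3, a phosphatase, rose from 1.86 and 2.04 to 10.6 and 10.2 FPKM (1.95, SE 0.1, adjusted p = 0.000389, limma). Tigar, a fructose bisphosphatase that slows glycolysis, rose from 2.70 and 2.48 to 7.45 and 7.42 FPKM (1.23, SE 0.0905, adjusted p = 0.000765, limma). For both genes the 4-OHT DMSO libraries lay wholly above the controls. Sco2, a copper chaperone of cytochrome c oxidase, rose from 1.17 and 1.03 to 7.23 and 13.2 FPKM (2.36, SE 0.256, adjusted p = 0.00208, limma), but it overlaps Tymp and Ncaph2 and its reads may be shared, so its value is uncertain. Tap1, a peptide transporter of antigen presentation that interferon also induces, rose from 1.75 and 2.68 to 8.65 and 12.4 FPKM (1.84, SE 0.215, adjusted p = 0.00259, limma).

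Ephx1, the microsomal epoxide hydrolase, fell most, from 188 FPKM in each EtOH DMSO library to 38.6 and 49.6 (-2.08, SE 0.127, adjusted p = 0.000497, limma). Acad11, an acyl-CoA dehydrogenase, fell from 5.62 and 6.02 to 1.72 and 1.99 FPKM (-1.26, SE 0.102, adjusted p = 0.000986, limma), and the gene overlaps Ackr4. Dcxr, a xylulose reductase, fell from 27.3 and 23.3 to 12.5 and 15.1 FPKM (-0.83, SE 0.127, adjusted p = 0.00568, limma). Among regulators, the ribosomal protein gene Rpl5, whose product binds MDM2, fell from 466 and 433 to 242 and 253 FPKM (-0.86, SE 0.0824, adjusted p = 0.0015, limma). It overlaps other genes and ribosomal protein genes have near-identical copies, so its value is uncertain. Rchy1, a ubiquitin ligase for p53, fell from 11.3 and 11.6 to 4.54 and 7.69 FPKM (-0.84, SE 0.211, adjusted p = 0.0265, limma). Its adjusted p was 0.0994 and 0.107 without the first or second EtOH DMSO library and 0.0553 and 0.0556 without the first or second EtOH Nec-1 library, with a range of 0.00236 to 0.107 over the alternatives. Rchy1 overlaps the transcribed pseudogene Thap6, Gadd45a a long non-coding RNA and Ptp4a3 a pseudogene. Hipk2, named below, overlaps Tbxas1 and a long non-coding RNA. Reads could have been shared at these genes too.

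Of the 32 calls among these 65 genes, 17 held in every alternative that tested the gene (10 rises and 7 falls). Ddit4l, below 1 FPKM in every EtOH library, was not tested in the alternative that required 1 FPKM in every library. The following were picked from the 17 after their values were seen. Btg2 (log2 fold change 0.92, adjusted p = 0.00271, limma), an antiproliferative gene, Gdf15 (0.76, adjusted p = 0.00504, limma), a stress-induced hormone, Rap2b (1.11, adjusted p = 0.0027, limma), a small GTPase, and Ddit4l (0.98, adjusted p = 0.00566, limma), an inhibitor of mTORC1, rose. Bbc3 (-0.48, adjusted p = 0.012, limma), which encodes the pro-apoptotic BH3-only protein PUMA, and the checkpoint kinase gene Chek2 (-0.50, adjusted p = 0.0088, limma) fell. The 3 cell death targets that rose, also named after their values were seen, each lost the call in some alternative. Tnfrsf10b (0.60, adjusted p = 0.0131, limma), which encodes the death receptor DR5, had an adjusted p of 0.0530 without the first EtOH DMSO library and a range of 0.0111 to 0.0530 over the alternatives. Trp53i11 (0.62, adjusted p = 0.0155, limma) had 0.0628 without the first EtOH DMSO and 0.0510 without the first 4-OHT DMSO library, with a range of 0.0118 to 0.0628. Rps27l (0.38, adjusted p = 0.0408, limma), a ribosomal protein gene, lost it in 10 alternatives, with 0.227 after median centring, 0.126 without the second EtOH DMSO library, 0.0997 and 0.0599 without the first or second 4-OHT DMSO library, 0.0809 and 0.0812 without the first or second EtOH Nec-1 library and a range of 0.0349 to 0.227. Bax, the pore-forming effector of apoptosis, stood at 0.38 (adjusted p = 0.106, limma, 0.0529 to 0.315 over the alternatives) and Pmaip1, which encodes NOXA, at 0.36 (adjusted p = 0.0769, limma, 0.0153 without the first 4-OHT DMSO library to 0.251). The single rise among regulators was Ppm1d (0.59, adjusted p = 0.026, limma), a phosphatase that switches p53 off and is itself a p53 target. Its adjusted p in limma was 0.0772 with median centring, 0.0605 and 0.107 without the first or second EtOH DMSO library and 0.086 without the first 4-OHT DMSO library, with a range of 0.0165 to 0.107 over the alternatives.

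**Figure D4:**
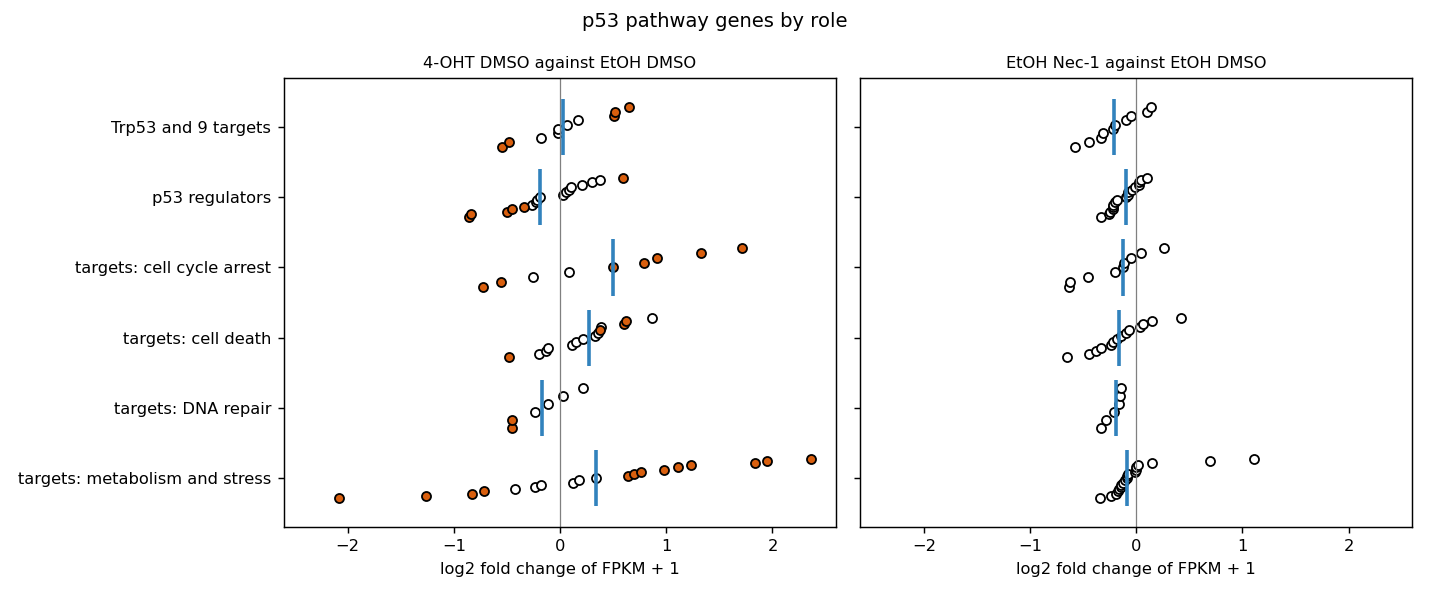
Log2 fold changes of FPKM + 1 of the p53 pathway genes past the filter, by role, for 4-OHT DMSO (left) and EtOH Nec-1 (right) against EtOH DMSO. Each point is a gene, filled where limma gave an adjusted p under 0.05, and the blue bar is the median of the list. On the left the medians ran from -0.19 (regulators) to 0.50 (cell cycle arrest), and on the right no gene was called.

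With Nec-1 in EtOH organoids 0 of the 65 genes passed limma, with or without the trend, where 0.22% of all genes did. At an unadjusted p under 0.05 there were 14 (2 higher and 12 lower), where 13.3% of all genes were (2.92% higher and 10.4% lower). Their median difference was -0.14, beside -0.094 for all genes. The 4-OHT Nec-1 library lay below both 4-OHT DMSO libraries for 38 of the 65 and above both for 13, where 49.3% and 25.5% of all genes did, or for 28 and 27 with median centring, where 31.8% and 42.3% did. By the distance to the nearer DMSO library, furthest below were Tap1 (3.17 FPKM, difference -1.45), Ptp4a3 (6.00 FPKM, -0.70), Ddit4 (64.1 FPKM, -0.66), an inhibitor of mTORC1, and Siva1 (1.66 FPKM, -0.64), a pro-apoptotic gene. Furthest above were Ephx1 (104 FPKM, 1.23), Acad11 (3.16 FPKM, 0.55), Abhd4 (19.8 FPKM, 0.43) and Hipk2 (4.56 FPKM, 0.35), a kinase of p53, with the difference from the mean of the DMSO libraries given for each. Sco2, whose DMSO libraries were far apart, had a larger difference from their mean (0.65) than the last 3 but lay nearer to the higher of them (0.26) than Hipk2 did (0.27). For Tap1, Ptp4a3, Ephx1 and Acad11 the 4-OHT Nec-1 library thus lay between 4-OHT DMSO and EtOH DMSO. These differences share the 4-OHT DMSO libraries with the comparison to EtOH DMSO.

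Other gene groups moved beside the p53 genes. All 12 proliferation genes had lower means with Nec-1 in EtOH organoids, with 0 called and a median of -0.42 (-0.32 after centring). Their summed level was 222 to 231 FPKM against 271 to 288. The median of all genes there was -0.094 (0.0048 after centring), and 39.1% of all genes lay lower without overlap against 10.5% higher. All 7 stem cell markers also had lower means (median -0.40), while all 7 Paneth cell markers had higher means (median 0.18). In 4-OHT organoids 11 of the 12 proliferation genes lay below both DMSO libraries, where 49.3% of all genes did. Their median was -0.48, beside -0.081 for all genes, and their sum 187 against 224 to 264 FPKM. In 4-OHT DMSO against EtOH DMSO 2 of them rose and 3 fell, where 24.5% and 16.7% of all genes did, and the lists that follow stand beside the same shares. All 10 interferon response genes rose in 4-OHT DMSO (median 4.07, sum 829 to 1114 FPKM against 30.3 to 31.0) and all 10 lay below both DMSO libraries with Nec-1 (median -2.22, sum 124 FPKM). Of 7 Paneth cell markers 7 rose in 4-OHT DMSO (median 1.38), as did 7 of 7 enteroendocrine markers (median 0.90, sum 533 to 600 FPKM against 262 to 283) and 5 of 6 goblet cell markers (median 0.76, sum 1867 to 2067 against 1258 to 1354 FPKM, 3 of 6 with median centring). Of 7 stem cell markers 4 fell (median -0.65), and of 7 enterocyte markers past the filter 5 fell and 1 rose (median -0.54, sum 993 to 1061 against 1341 to 1406 FPKM). In such bulk libraries, fewer cells of a type and less RNA per cell cannot be told apart. The part of these shifts in the levels of the p53 genes was not tested.

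The genes most like Cdkn1a and Trp53 across the 7 libraries were ranked by the root mean square difference of their log2(FPKM + 1), each centred on its own mean. For Cdkn1a they were Zfp768, Rhbdd2, Coq2, St3gal4 and Wdr44, with differences of 0.043 to 0.046 beside a median of 0.263 over all genes. Cdkn1a itself varied by only 0.083 about its mean on this measure, so its neighbours were likewise nearly flat. For Trp53 they were Miip, Fam76b, Rbm12b2, Poli and Mrm1, with differences of 0.046 to 0.061 beside a median of 0.339, and Trp53 varied by 0.240 about its mean. Picked by this likeness, each of these 5 was, like Trp53, higher in both EtOH DMSO libraries than in the other libraries. None of the 9 p53 targets was among the nearest genes of Trp53, Sesn1 being the closest at 0.171.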

How the data were processed

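Bulk RNA-seq of 7 organoid libraries in 4 groups was used, grouped by the sample titles. The authors deposited FPKM, 1 value per Ensembl mouse gene. HISAT2 2.1.0, StringTie 1.3.3b and the build mm10 are named in the submitters' processing notes, without their roles, and libraries were made with the NEBNext Ultra RNA kit; whether counting used strand is not given in the sources used here. Per the file headers 2 columns repeated another file and were read once, and 0 value columns were left unmapped. Of 54838 gene identifiers 54723 had a symbol. The 2 Atf3 samples were not analysed here. Fragment counts were not used, so the depth behind single values is unknown.

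limma 3.58.1 (R 4.3.3) with a mean-variance trend was fitted to log2(FPKM + 1) of the 12702 genes that reached 1 FPKM in 2 or more libraries, with 1 mean per group over all 7 libraries (3 residual degrees of freedom), Benjamini-Hochberg adjustment over all genes and a threshold of 0.05. Comparisons with the single 4-OHT Nec-1 library had no test: the library was placed above, below or between the 2 libraries of the other group. The fit was tested on simulated data. Alternatives were median centring, upper quartile scaling, limma without the trend, 2 other filters, pseudocounts of 0.1 and 0.25, only the 4 libraries compared, the replicate block and each library left out in turn. Promoters (RefSeq, GRCm38.p6) were searched for the letters CATG, as planned, and for the p53 decamer, a motif chosen after the values were seen. Python 3.11.15, matplotlib 3.10.9, scipy 1.17.1, pandas 2.3.3 and numpy 2.4.6 were used.

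The 10 genes and all gene lists were chosen with earlier results of these data known. Besides the 10 genes, Mettl3 and the cell type markers, genes were named by a rule. It took the up to 6 largest rises and falls of other p53 pathway genes past the threshold and in the same direction in every pairing of libraries. It also took the 4 furthest below and above in 4-OHT Nec-1, and the 5 genes most like Cdkn1a and Trp53. Furthest was measured from the nearer DMSO library. The genes Btg2, Gdf15, Rap2b, Ddit4l, Bbc3, Chek2, Tnfrsf10b, Trp53i11, Rps27l, Bax, Pmaip1 and Ppm1d are outside this rule and were named after their values were seen.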

Additional observations from a re-analysis of the deposited data

Results flagged for a closer look

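The Nec-1 libraries of Trp53inp1 lay on opposite sides of the DMSO libraries in the 2 backgrounds. Both EtOH Nec-1 libraries lay above both EtOH DMSO libraries (log2 difference 0.134, adjusted p = 0.594 in limma, 0.534 to 0.954 over the alternatives), and the 4-OHT Nec-1 library lay below both 4-OHT DMSO libraries (-0.15). The difference between the backgrounds was not tested, since 4-OHT Nec-1 has 1 library. With median centring the values were 0.233 and -0.036, and the 4-OHT Nec-1 library then lay between the DMSO libraries.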

How the results depend on the processing

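The rises of Mdm2, Aen and Phlda3 and the fall of Sesn1 in 4-OHT DMSO kept their direction and an adjusted p under 0.05 under every alternative run. The number of the 10 genes called lower was 1 to 2 with single libraries left out, the loss being Trp53 without the first EtOH DMSO library. For the other p53 pathway genes the number lower was 8 without a filter on low values, 9 with only the 4 libraries compared and 8 to 14 with single libraries left out, and the number higher with Nec-1 in EtOH organoids was 2 with only the 4 libraries and 0 to 2 with single libraries left out. In 4-OHT Nec-1 against 4-OHT DMSO, the genes above both were 2 with median centring and 3 with upper quartile scaling, and those below both 4 with either scaling. For the other pathway genes those above were 27 with centring and 26 with upper quartile scaling. With a DMSO library left out only 1 remained, so by the rule every gene lay above or below it. Of the 10 genes 1 then lay above and 9 below, and of the other pathway genes 19 to 21 above and 44 to 46 below. The cause of the other shifts was not tested.

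Signs turned for values near 0. In 4-OHT DMSO these were Cdkn1a (-0.16 to 0.13 with single libraries left out, above 0 without the second EtOH DMSO library, at 0.019, or the first 4-OHT DMSO library), Eda2r (-0.16 to 0.12, above 0 without the second EtOH DMSO library), Zmat3 (-0.034 to 0.37, below 0 without the first EtOH DMSO library) and Trp53inp1 (-0.092 with centring and -0.071 with upper quartile scaling). With centring and upper quartile scaling, Cdkn1a turned to 0.053 and 0.060 and Sesn1 to 0.0030 and 0.0019 in EtOH Nec-1, Ccng1 to 0.059 and 0.077 in 4-OHT Nec-1 against 4-OHT DMSO, and Cdkn1a to -0.090 and -0.086 in 4-OHT Nec-1 against EtOH Nec-1.

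The deviations of same-numbered libraries correlated by -0.040, 0.0065 and -0.012 across genes, so no shared deviation was visible. These values cannot show whether same-numbered libraries came from the same mouse or culture. With the replicate number as a block, 3 of the 10 genes were called higher and 2 lower in 4-OHT DMSO and 0 in EtOH Nec-1, and over all genes 2788 were higher and 1909 lower in 4-OHT DMSO.

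With 2 libraries or 1 per group and 3 residual degrees of freedom, the intervals of Cdkn1a, Eda2r and Zmat3 were wide. Fragment counts were not used, so counting error of low genes such as Eda2r is unknown.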
